A study of Mus musculus with 8 samples.

Results

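The amino acid transporters of these fetal mouse gonads were read as 58 genes, measured by 118 of the 45037 probe sets tested on each array. They are the genes whose symbol places them in the solute carrier families Slc1, Slc3, Slc6, Slc7, Slc36, Slc38 or Slc43, out of 18193 genes with a probe set of a single symbol. The rule reads the symbol alone. The Slc6 family also holds carriers of monoamines, taurine, betaine and creatine, and these were kept. Of the 58 genes, 28 had 1 probe set and 30 had several, up to 7. The 5 other symbols of these families that did not match were left out (Slc6a20a, Slc6a20b, Slc7a6os, Slc6a19os and Slc36a1os), as was 1 probe set that carries several symbols.

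The arrays came from 4 groups of 2 samples each, all at embryonic day 13 (E13) and all from the strain labelled C57BL6/J-Tg92. Sertoli cells were XY supporting cells sorted from fetal gonads for EGFP, about 22000 cells a sample, and pre-granulosa cells were their XX counterparts, about 30000 cells a sample. Whole testes (XY) and whole ovaries (XX) were pooled, 4 gonads a sample. No treatment or further allele is named beyond the strain label, which does not say what drives EGFP. No label states that replicate samples were taken from different animals, so the p-values measure only the spread between these samples, which may be technical. In whole gonads, fewer cells of a type and less RNA per cell cannot be told apart.

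Amino acid carriers move their substrates across the plasma membrane or between the cytosol and the lysosome. Some are driven by sodium or proton gradients and accumulate amino acids in the cell, whereas others are exchangers that trade one amino acid for another. The heteromeric exchangers pair a light chain of the Slc7 family, which carries the amino acid, with a heavy chain of the Slc3 family, which brings the complex to the membrane. Supporting cells surround the germ cells in the gonad of either sex, and in the adult testis Sertoli cells form a barrier through which germ cells receive nutrients.

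Values below are log2 signals of RMA, a method that summarises the probes of a probe set. A gene's value is that of its probe set with the highest mean, and differences were taken between samples of a probe set. The background level given below comes from other probe sets. Statements and fold bounds that use it therefore set a probe set against others, whose background may differ. A probe set was called where limma's adjusted p was at or under 0.01. In a fit that left out an array, the lone array of that group was assumed to vary like the other groups, so a call gained there shows only that the result depends on the array left out. Replicate arrays correlated at 0.964 in Sertoli cells, 0.944 in pre-granulosa cells, 0.993 in testes and 0.984 in ovaries, and the root mean square SD was 0.43 in Sertoli cells, 0.53 in pre-granulosa cells, 0.20 in testes and 0.30 in ovaries. The 3′ minus 5′ signal of Gapdh, which can grow as RNA degrades, was 1.94 and 2.69 in the Sertoli samples, 3.68 and 1.24 in pre-granulosa cells, 0.72 and 0.95 in testes and 1.55 and 1.40 in ovaries, and its part in the results was not tested. As a check of the sorted cells, 6 of 9 Sertoli markers were called higher in Sertoli cells and 4 of 8 pre-granulosa markers were called lower. Germ cell genes were low in both, with a summed signal of 8.67 to 9.17 in Sertoli and 8.49 to 9.42 in pre-granulosa arrays, and 5 of 9 at or under 4.78. Of these 9, 1 was called lower in Sertoli cells. The level 4.78 was the highest signal of Y-linked probe sets on XX arrays and marks the background. Macrophage genes were uneven, with a summed signal of 10.14 to 12.09 in Sertoli and 8.35 to 8.55 in pre-granulosa arrays. C1qb alone of those 9 was called, and 1 of the 9 in the Sertoli group and 4 in the pre-granulosa group lay at or under the background level. Fetal Leydig cell genes had a summed signal of 13.32 to 13.55 in testes and 9.40 to 9.54 in ovaries, and 3 of 4 were called higher in testes. In sorted cells they had 10.83 to 11.61 in Sertoli and 9.31 to 9.81 in pre-granulosa arrays, with none called. Of 8 endothelial genes, 1 (Robo4) was called higher in Sertoli cells, with a summed signal of 9.21 to 9.42 in Sertoli and 8.18 to 9.18 in pre-granulosa arrays. The part of these cells in the results was not tested.

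Of the 118 probe sets, 20 stayed at or under the background level on all 8 arrays (16.9%, against 20.9% of all probe sets). The 7 genes with no probe set above it were Slc6a11, Slc6a16, Slc6a19, Slc7a12, Slc7a13, Slc7a14 and Slc7a15. This leaves 51 genes with a probe set above the level on at least 1 array. Passing it does not show that a gene was expressed. The level lies under the median of every array (5.565 to 5.994), and Slc6a21 passed with a highest signal of 4.92. Between Sertoli and pre-granulosa cells, 2 of the 118 probe sets were called (1.69%), against 1.81% of all probe sets. They were Slc38a5 and Slc6a4, and both were higher in Sertoli cells. Over all genes 1.62% were called higher and 1.05% lower. Between testis and ovary, 1 probe set was called (0.847%), that of Slc6a4, against 0.215% of all probe sets. Over all genes 0.236% were called higher and 0.115% lower. With 2 and 1 calls, nothing is read from these shares. The median difference over the 58 genes was 0.02 between Sertoli and pre-granulosa cells (0.04 over all genes) and 0.05 between testis and ovary (−0.04 over all genes). The heatmap of all 58 genes shows the spread over samples.

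**Figure D1:**
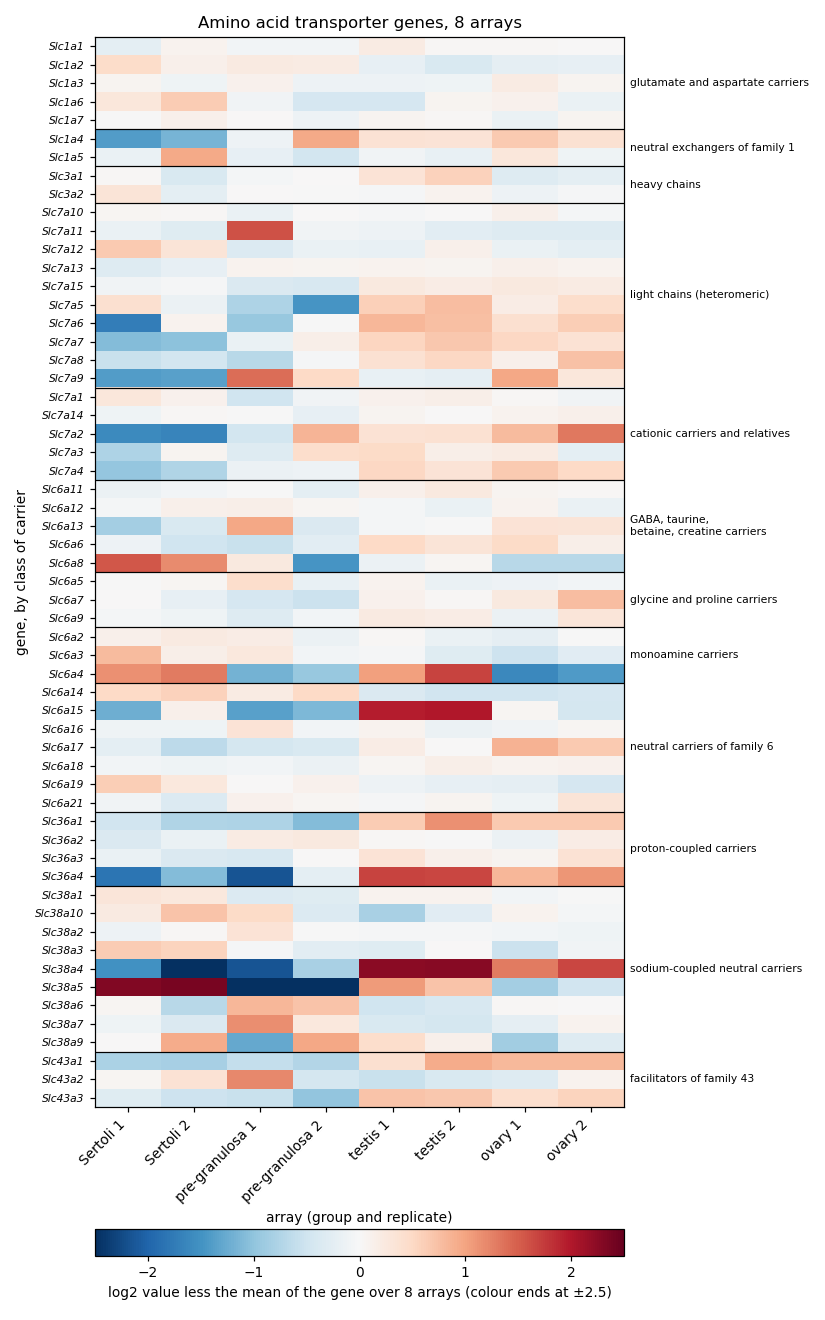
Signal of each of the 58 transporter genes (rows, grouped by role) on each of the 8 arrays (columns), as log2 signal less the gene's own mean, with colours ending at 2.5 log2 units either way. Slc38a4 and Slc38a5 span the widest ranges of the 58 genes, 5.24 and 4.99 log2 units, the first between sorted cells and gonads and the second between Sertoli and pre-granulosa arrays.

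Slc38a5, also called SNAT5, is an X-linked carrier that couples the movement of glutamine, asparagine, histidine, serine and glycine to sodium and exchanges it for protons. Its signal was 8.73 and 8.78 in Sertoli cells and 3.89 and 3.79 in pre-granulosa cells. In whole gonads it was 7.48 and 7.12 in testes and 5.55 and 5.94 in ovaries. Both pre-granulosa arrays lay under the background level, whereas both ovary arrays lay above it. Sertoli cells exceeded pre-granulosa cells by 4.92 ± 0.20 (SE, adjusted p = 0.000617). Because pre-granulosa cells read as background, this is stated as at least 15.7-fold higher. Testes exceeded ovaries by 1.55 ± 0.20, or 2.93-fold, which was not called (adjusted p = 0.0354). The fitted gap between Sertoli and pre-granulosa cells exceeded that between testis and ovary by 3.37 ± 0.28, also not called (adjusted p = 0.0345), and it includes the pre-granulosa signal under background. Less the median over all probe sets, Sertoli cells stood 1.67 above testes and pre-granulosa cells 1.66 below ovaries, without overlap of arrays in either case. The call between Sertoli and pre-granulosa cells held in each of 8 fits that left out 1 array, with differences between 4.87 and 4.97. It was not called where only the 4 sorted-cell arrays entered the fit (adjusted p = 0.0614).

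Slc6a4, the plasma membrane serotonin carrier, was the other transporter called, and the only one called in both comparisons. It carries no amino acid, but belongs to the Slc6 family. Its signal was 6.81 and 6.97 in Sertoli cells and 4.48 and 4.73 in pre-granulosa cells. It was 6.70 and 7.35 in testes and 4.06 and 4.26 in ovaries. All 4 XY arrays lay well above the background level and all 4 XX arrays at or under it. Sertoli cells exceeded pre-granulosa cells by 2.29 ± 0.25 (SE, adjusted p = 0.00616), at least 4.31-fold. Testes exceeded ovaries by 2.87 ± 0.25 (adjusted p = 0.00942), at least 4.73-fold. Both gaps are lower bounds, so their sizes were not compared. Both calls lie near the threshold. Between Sertoli and pre-granulosa cells the call was kept in 1 of 8 fits that left out an array, the one without pre-granulosa replicate 2, with adjusted p between 0.00998 and 0.0355. Between testis and ovary it was kept in 0 of 8, with adjusted p between 0.0135 and 0.0942 and differences between 2.54 and 3.19. With only the 4 arrays of a comparison in the fit, neither was called (adjusted p = 0.0752 in sorted cells and 0.0252 in gonads). With a weight per group, the sorted-cell call was lost and the gonad call was kept. The other monoamine carriers, Slc6a2 for noradrenaline and Slc6a3 for dopamine, were not called in either comparison.

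The 250 bases upstream of the start of each called gene are shown because these transporters were called between XY and XX samples, Slc38a5 in sorted cells only. They are the RefSeq sequences of the mouse build GRCm38.p6, 5′ to 3′ on the plus strand, at chrX:8271131-8271380 for Slc38a5 and chr11:76998347-76998596 for Slc6a4.
Slc38a5: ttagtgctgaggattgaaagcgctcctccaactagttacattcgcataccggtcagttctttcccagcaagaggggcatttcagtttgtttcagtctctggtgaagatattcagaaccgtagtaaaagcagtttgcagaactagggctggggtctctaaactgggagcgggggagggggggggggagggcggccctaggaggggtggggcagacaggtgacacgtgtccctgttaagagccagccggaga
Slc6a4: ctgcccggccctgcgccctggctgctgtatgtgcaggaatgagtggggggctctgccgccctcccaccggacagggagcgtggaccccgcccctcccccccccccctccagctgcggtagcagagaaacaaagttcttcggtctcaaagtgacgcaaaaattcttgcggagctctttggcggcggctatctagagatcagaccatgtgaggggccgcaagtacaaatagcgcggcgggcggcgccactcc
No part is in capitals because no searched motif was found in either window. Their GC content was 55.2% for Slc38a5 and 64.8% for Slc6a4, with a median of 52.4% over all promoters. The motifs were AACAAT for SOX factors, CAAGGTCA for NR5A1, GTAAACA for FOX factors and TGATGNAA for the amino acid response element, on both strands. Among 32851 promoters of that length the SOX motif was found in 9.42%, the NR5A1 motif in 1.33%, the FOX motif in 3.17% and the amino acid response element in 3.45%. That they were not found here says only that these letters are not in these windows. Of the transporters, 41 genes had 62 promoters in the table. The SOX motif was in those of Slc36a3, Slc38a7 and Slc7a1, the NR5A1 motif in that of Slc6a11, and the FOX motif in those of Slc36a3 and Slc7a11.

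**Figure D2:**
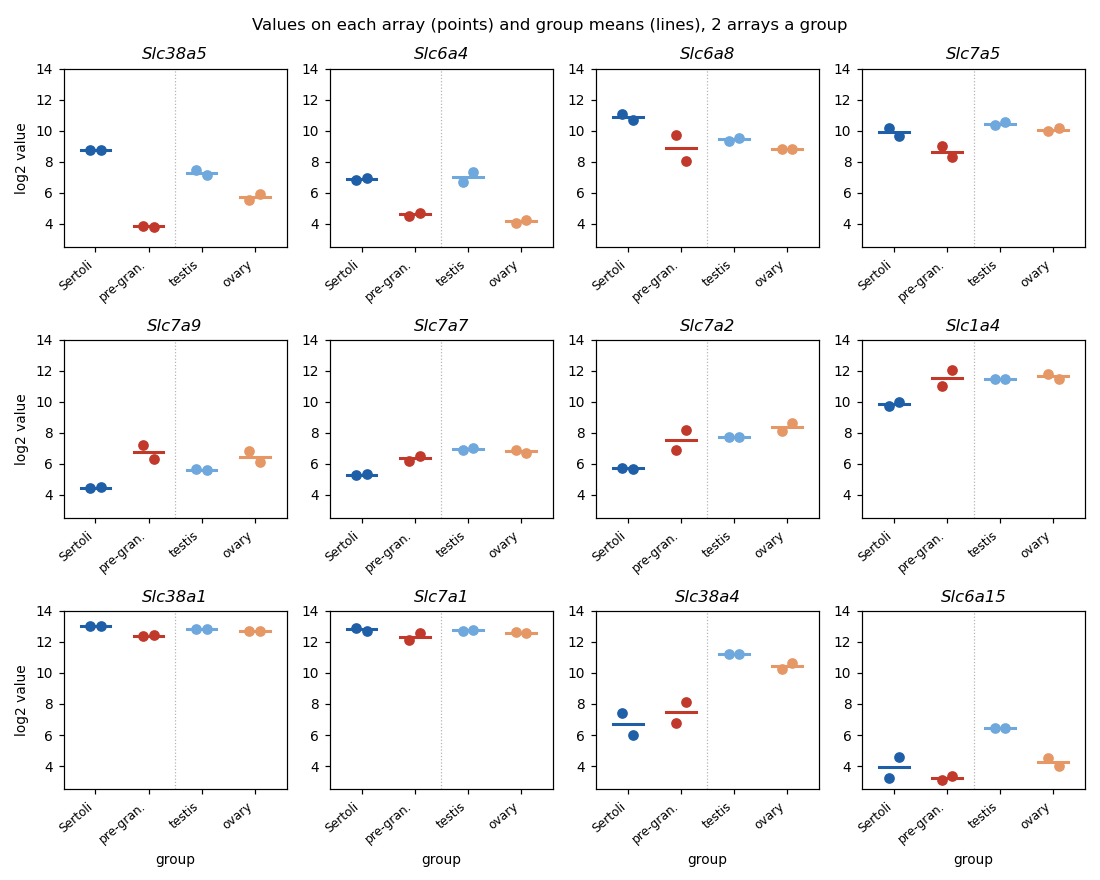
Log2 signal on each of the 8 arrays (points) with the mean of each group (lines) for 12 transporter genes, in the order Sertoli, pre-granulosa, testis and ovary. Slc38a5 and Slc6a4 have the Sertoli and testis arrays apart from their XX counterparts, while Slc38a4 lies above 10 on all gonad arrays and between 5.99 and 8.15 on sorted-cell arrays.

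Among the heteromeric exchangers, no light or heavy chain was called in either comparison. Slc7a5 (LAT1) imports large neutral amino acids such as leucine in exchange for glutamine. Its signal was 10.17 and 9.63 in Sertoli cells and 9.01 and 8.29 in pre-granulosa cells, a difference of 1.25 ± 0.30 (adjusted p = 0.0728). In testes it was 10.37 and 10.54 and in ovaries 9.95 and 10.20 (0.38 ± 0.30, adjusted p = 0.846). The XY arrays lay above the XX arrays of the same kind in both comparisons. Its heavy chain Slc3a2 read 9.50 and 8.95 in Sertoli cells against 9.20 and 9.17 in pre-granulosa cells, and 9.15 and 9.26 in testes against 9.06 and 9.16 in ovaries. The Sertoli arrays lay on both sides of the pre-granulosa arrays.

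Slc7a9 and Slc3a1 form the cystine and dibasic amino acid exchanger of kidney and gut. Slc7a9 read 4.45 and 4.49 in Sertoli cells, at background, against 7.25 and 6.35 in pre-granulosa cells. It read 5.66 and 5.61 in testes against 6.82 and 6.12 in ovaries. Both XY groups lay below their XX counterparts, with differences of −2.33 ± 0.35 in sorted cells (adjusted p = 0.0174) and −0.83 ± 0.35 in gonads (adjusted p = 0.551). With Sertoli cells at background, the sorted-cell difference is a bound, at least 4.03-fold lower. Neither was called, except that the sorted-cell difference was called without pre-granulosa replicate 2 (−2.78, adjusted p = 0.00716). Slc3a1 read 6.24 and 5.84 in Sertoli cells against 6.17 and 6.23 in pre-granulosa cells, and 6.56 and 6.80 in testes against 5.89 and 5.97 in ovaries. The testis arrays lay above the ovary arrays (0.75 ± 0.19, adjusted p = 0.223), while the Sertoli arrays lay on both sides of the pre-granulosa arrays. Between testis and ovary the fitted differences of the light chain and its heavy chain had opposite signs. Neither was called, so no opposite change of the pair is read from them.

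Slc7a7 (y+LAT1) exports cationic amino acids with Slc3a2 as its heavy chain. It read 5.29 and 5.33 in Sertoli cells against 6.21 and 6.52 in pre-granulosa cells (−1.05 ± 0.17, adjusted p = 0.0206). In testes it read 6.91 and 7.04 and in ovaries 6.89 and 6.73 (0.17 ± 0.17, adjusted p = 0.910). The arrays did not overlap in either comparison, with opposite signs. The difference between the 2 gaps, −1.22 ± 0.23, was not called (adjusted p = 0.120). Slc7a11, which imports cystine in exchange for glutamate, read 3.59 and 3.46 in Sertoli cells against 5.35 and 3.68 in pre-granulosa cells. A single pre-granulosa array lay above background. The difference was −0.99 (adjusted p = 0.362), and −1.83 with that array as the whole pre-granulosa group, without replicate 2 (adjusted p = 0.00435). This sets 1 array against background, with the spread taken from the other groups. The other probe set of Slc7a11 had overlapping arrays in both comparisons, and only ovary replicate 1 (4.88) lay above background. Slc7a12 stayed under the background level on every array, with a difference of 0.76 in sorted cells (adjusted p = 0.0868).

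The sequence that ATF4 binds in amino acid starvation, the amino acid response element, is well known in the promoter of Slc7a11. It lay in the upstream windows of 3 of the 41 genes, Slc7a11, Slc7a7 and Slc6a21, and in 4 of their 62 promoters (6.45%, against 3.45% of all promoters). With 4 matches nothing is read from this share. The elements of the first 2 are shown because those genes are the exchangers just described, with the letters of the element in capitals, on the minus strand of GRCm38.p6 and 5′ to 3′. Those of Slc7a11 are at chr3:50443652-50443680 and start 66 bases before the gene's start, and those of Slc7a7 are at chr14:54417927-54417952 and chr14:54418067-54418096, in 2 promoters of the gene, 243 and 141 bases before the start of each.
Slc7a11: cTGATGCAAacctggagaatTTGCATCAt
Slc7a7, first promoter: tagaagcTGATGCAAcagcttccccg
Slc7a7, second promoter: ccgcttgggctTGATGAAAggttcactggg
In Slc7a11 the element is present on each strand, facing its copy. A match describes the letters and not a bound site.

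The cationic carriers Slc7a1 and Slc7a2 both import arginine and lysine. Slc7a2 read 5.75 and 5.69 in Sertoli cells against 6.90 and 8.19 in pre-granulosa cells (−1.82 ± 0.42, adjusted p = 0.0656). It read 7.71 and 7.73 in testes against 8.14 and 8.66 in ovaries (−0.68 ± 0.42, adjusted p = 0.761). The XY arrays lay below the XX arrays in both comparisons, and without pre-granulosa replicate 1 the sorted-cell difference was called (−2.47, adjusted p = 0.00764). Slc7a1 read 12.91 and 12.73 in Sertoli cells against 12.14 and 12.55 in pre-granulosa cells, and 12.73 and 12.77 in testes against 12.66 and 12.55 in ovaries. Its XY arrays lay above the XX arrays in both, by 0.48 ± 0.18 (adjusted p = 0.229) and 0.14 ± 0.18 (adjusted p = 0.951). Another probe set of Slc7a1 had overlapping arrays in sorted cells (−0.28, adjusted p = 0.829). A further one, near background, lay higher in Sertoli cells (0.42, adjusted p = 0.346). A second probe set of Slc7a2 differed by −1.47 in sorted cells (adjusted p = 0.112). Slc7a3 read 4.47 and 5.31 in Sertoli cells against 4.91 and 5.68 in pre-granulosa cells, and its arrays overlapped in gonads too.

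Slc1a4 (ASCT1), an exchanger of serine, alanine, cysteine and threonine, read 9.71 and 9.96 in Sertoli cells against 10.99 and 12.06 in pre-granulosa cells. The difference of −1.69 ± 0.35 was not called (adjusted p = 0.0469), and was called without pre-granulosa replicate 1 (−2.22, adjusted p = 0.00613). In gonads the signal was 11.48 and 11.47 in testes against 11.77 and 11.50 in ovaries (−0.16 ± 0.35, adjusted p = 0.986). Another probe set of Slc1a4 also ran lower in Sertoli cells (−0.48, adjusted p = 0.152). A further one, at background in sorted cells, had overlapping arrays there (−0.05, adjusted p = 0.911). Slc1a5 (ASCT2), the related glutamine exchanger, read 5.77 and 6.89 in Sertoli cells against 5.73 and 5.48 in pre-granulosa cells (0.72, adjusted p = 0.371). The glutamate carriers Slc1a3 and Slc1a6 were not called either, with differences of −0.01 for Slc1a3 and 0.72 for Slc1a6 (adjusted p = 0.184) in sorted cells. Testis arrays of Slc1a3 lay below ovary arrays, with a difference of −0.26 (adjusted p = 0.754).

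Of the 9 sodium-coupled neutral carriers of the Slc38 family, Slc38a5 alone was called. Slc38a1 and Slc38a2 are the system A carriers that concentrate glutamine and alanine. Slc38a1 read 13.04 and 12.99 in Sertoli cells against 12.39 and 12.42 in pre-granulosa cells, and 12.82 and 12.82 in testes against 12.67 and 12.72 in ovaries. The Sertoli arrays lay above the pre-granulosa arrays by 0.61 ± 0.13 (adjusted p = 0.0506), and the testis arrays above the ovary arrays by 0.13 (adjusted p = 0.913). The other probe set of Slc38a1 had overlapping arrays in both comparisons, with differences of −0.03 in sorted cells (adjusted p = 0.990) and 0.06 in gonads. The sorted-cell gap of Slc38a1 therefore rests on the choice of probe set. Slc38a2 differed by −0.21 in sorted cells (adjusted p = 0.587) and by 0.07 in gonads (adjusted p = 0.993). Another of its probe sets read 6.52 and 7.09 in Sertoli cells against 8.60 and 8.47 in pre-granulosa cells, a difference of −1.73 ± 0.22 (adjusted p = 0.011), which was called where only probe sets with a mean of at least 6 were tested.

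Slc38a6 averaged 10.84 ± 0.53 in Sertoli cells against 11.94 ± 0.09 in pre-granulosa cells (SD, n = 2 each), a difference of −1.10 ± 0.25 (limma's adjusted p = 0.0643). It read 10.67 and 10.77 in testes against 11.19 and 11.18 in ovaries (−0.47, adjusted p = 0.697). Slc38a7, a lysosomal glutamine carrier, read 7.54 and 7.28 in Sertoli cells against 8.81 and 7.90 in pre-granulosa cells (−0.95, adjusted p = 0.164). For both genes the XY arrays lay below the XX arrays in sorted cells and in gonads. Slc38a3 read 6.10 and 6.03 in Sertoli cells against 5.44 and 5.21 in pre-granulosa cells (0.74, adjusted p = 0.125). Slc38a9, a lysosomal arginine sensor of mTORC1 signalling, had overlapping arrays in sorted cells (0.61, adjusted p = 0.743), and its testis arrays lay above its ovary arrays (0.89, adjusted p = 0.860). Testis arrays of Slc38a10 lay below ovary arrays, with a difference of −0.57 (adjusted p = 0.749).

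Slc38a4, which is imprinted and expressed from the paternal allele in mouse, was low in sorted cells and high in gonads. It read 7.45 and 5.99 in the Sertoli samples, 6.80 and 8.15 in pre-granulosa cells, 11.21 and 11.23 in testes and 10.25 and 10.63 in ovaries. Less the median over all probe sets, Sertoli cells stood 4.29 below testes and pre-granulosa cells 2.71 below ovaries. Interstitial marker genes ran the same way, with a summed signal of 11.85 to 11.98 in Sertoli and 8.90 to 11.98 in pre-granulosa arrays, against 14.51 to 14.53 in testes and 13.93 to 14.13 in ovaries. Erythroid markers had 10.36 to 10.53 in Sertoli and 10.49 to 11.61 in pre-granulosa arrays, against 13.86 to 14.05 in testes and 13.85 to 13.91 in ovaries. Germ cell markers had 13.50 to 13.73 in testes and 13.43 to 13.46 in ovaries, above the sorted-cell ranges given earlier. Their part in the result was not tested.

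The Slc6 family held the creatine carrier Slc6a8, on the X chromosome. It read 11.06 and 10.68 in Sertoli cells against 9.75 and 8.02 in pre-granulosa cells, and 9.35 and 9.54 in testes against 8.80 and 8.80 in ovaries. The XY arrays lay above the XX arrays in both comparisons, by 1.98 ± 0.52 (adjusted p = 0.095) and 0.64 ± 0.52 (adjusted p = 0.856). Without pre-granulosa replicate 1 the sorted-cell difference was called (2.85, adjusted p = 0.00453), with replicate 2 as the only array of its group and the spread taken from the other groups. A second probe set of the gene differed by 1.25 (adjusted p = 0.081) in sorted cells and 0.76 (adjusted p = 0.525) in gonads. Slc6a15, a carrier of branched-chain amino acids and proline, read 3.24 and 4.60 in Sertoli cells and 3.10 and 3.35 in pre-granulosa cells, all at background. In testes it read 6.42 and 6.46, against 4.51 and 4.03 in ovaries, also at background. The testis value was at least 3.16-fold higher, and was not called (adjusted p = 0.132).

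Slc6a6 for taurine and Slc6a9 for glycine differed by 0.09 and 0.12 in sorted cells and by 0.10 and 0.13 in gonads. Another probe set of Slc6a6 read 8.84 and 8.29 in testes against 6.73 and 6.42 in ovaries, without overlap. The gap of 1.99 missed the threshold (adjusted p = 0.488), and its arrays overlapped in sorted cells. Slc6a13, a GABA carrier, read 4.69 and 5.16 in Sertoli cells against 6.52 and 5.18 in pre-granulosa cells (−0.92, adjusted p = 0.318). Slc6a7, the brain proline carrier, differed by 0.37 (adjusted p = 0.418) in sorted cells and by −0.44 (adjusted p = 0.622) in gonads. Slc6a17, a vesicular carrier of neutral amino acids in neurons, had testis arrays below ovary arrays (−0.66 ± 0.19, adjusted p = 0.303) and overlapping arrays in sorted cells. Slc43a2, a facilitator of large neutral amino acids, likewise had testis arrays below ovary arrays (−0.35, adjusted p = 0.964). The 25 genes outside the naming rule differed by −0.72 to 0.39 in sorted cells, with no adjusted p under 0.0556, and by −0.15 to 0.28 in gonads, with none under 0.895.

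Across all 58 genes, arrays of the 2 groups did not overlap for many genes that were not called. Sertoli arrays lay above pre-granulosa arrays for 16 genes (27.6%, against 24.2% of all genes) and below them for 14 (24.1%, against 19.1%). Testis arrays lay above ovary arrays for 18 genes (31%, against 24.4%) and below for 12 (20.7%, against 30.7%). These counts include genes whose arrays in the comparison all lay under background. In sorted cells these were Slc6a19, Slc7a12 and Slc7a15 above and Slc6a16, Slc6a21, Slc7a13 and Slc43a1 below. In gonads they were Slc6a11, Slc6a19 and Slc7a11 above and Slc7a14 below. No direction is read for them there. In both comparisons at once, 14 genes ran the same way (24.1%, against 18.9%): Slc38a5, Slc6a4, Slc6a8, Slc7a5, Slc38a1, Slc7a1, Slc43a3 and Slc6a19 with XY arrays above XX arrays, and Slc1a4, Slc38a6, Slc38a7, Slc6a13, Slc7a2 and Slc7a9 with XY arrays below. Slc6a7, Slc7a7 and Slc7a11 ran opposite ways (5.17%, against 6.66%). Of the genes listed for both comparisons, Slc6a19 on all arrays and Slc7a11 on all gonad arrays lay under background in the probe set of highest mean. These 2 enter the counts by the rule and no direction is read for them. These shares were read beside the background, with no test. The difference between the 2 comparisons was called for 0 of the 118 probe sets and for 0% of all probe sets in limma, with 15 of the transporters and 5142 of all probe sets at an unadjusted p under 0.05.

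**Figure D3:**
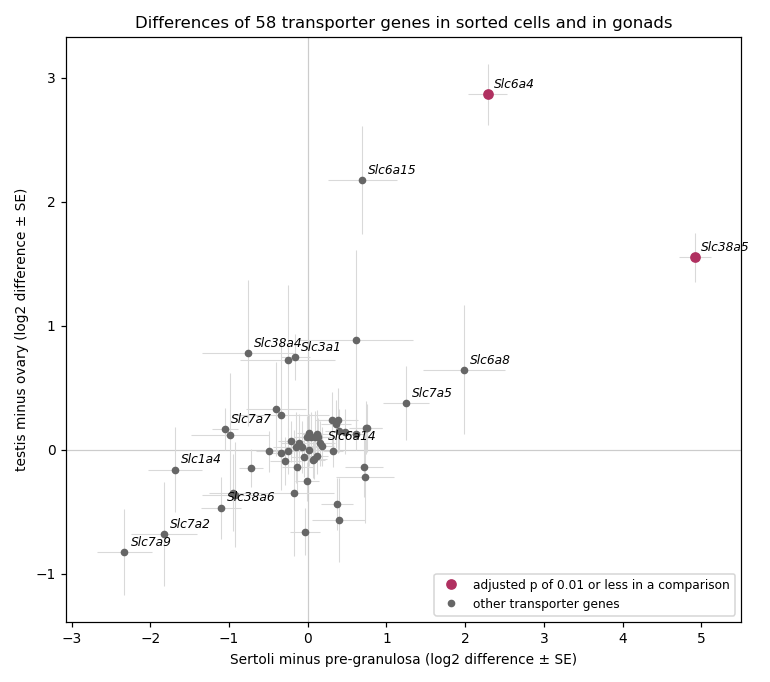
Difference between Sertoli and pre-granulosa cells (x axis, log2) and between testis and ovary (y axis, log2) for the 58 transporter genes, with bars of 1 SE and called genes in colour. Slc38a5 lies furthest right at 4.92, and Slc6a4 is the highest point at 2.87.

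Probe sets of one gene did not always run the same way. Among 26 genes with several probe sets above background, arrays did not overlap in opposite directions for 2 genes between Sertoli and pre-granulosa cells (Slc38a9 and Slc6a6) and for 6 between testis and ovary (Slc1a4, Slc38a2, Slc38a4, Slc43a2, Slc6a17 and Slc7a1). The direction of these genes rests on the choice of probe set.

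Sorted cells were set against gonads only as a description, because the values of the sets appear to have been scaled separately. The median difference over all probe sets was subtracted first (−0.21 for Sertoli minus testis and −0.25 for pre-granulosa minus ovary). Counting genes past 1 log2 unit after that, with no overlap in both sexes, sorted cells were higher for 1 transporter (1.72%, against 1.57% of all genes) and lower for 4 (6.9%, against 10.2%). The one higher was Slc6a14, a broad neutral and cationic carrier, which read 5.44 and 5.52 in the Sertoli samples, 5.16 and 5.44 in pre-granulosa cells, 4.58 and 4.46 in testes and 4.47 and 4.52 in ovaries. As deposited it differed by 0.96 in XY and 0.81 in XX samples, and it passed 1 unit only less the median (1.17 and 1.06), with all 4 gonad arrays under background. The other probe set of Slc6a14 ran the opposite way, at 3.36 and 4.22 in the Sertoli samples and 3.30 and 3.30 in pre-granulosa cells, against 5.90 and 5.49 in testes and 4.47 and 3.69 in ovaries. The direction of Slc6a14 therefore rests on the choice of probe set. The 4 lower were Slc36a1, Slc36a4, Slc38a4 and Slc43a1. Slc36a1 and Slc36a4 belong to the proton-coupled family of lysosome and plasma membrane. Slc36a4 read 7.75 and 8.49 in the Sertoli samples, 7.41 and 9.33 in pre-granulosa cells, 11.27 and 11.25 in testes and 10.39 and 10.67 in ovaries. These counts take the probe set of highest mean of each gene. Other probe sets of Slc38a9 passed the same rule as higher, up to 2.53 in XY and 2.72 in XX samples. A further one lay lower, at −0.38 and −0.53. Other probe sets of Slc1a3 passed as lower, down to −2.60 and −2.29, while a further one lay higher, at 0.45 and 0.53. The second probe set of Slc7a6 also passed as lower (−1.81 and −1.13).

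**Figure D4:**
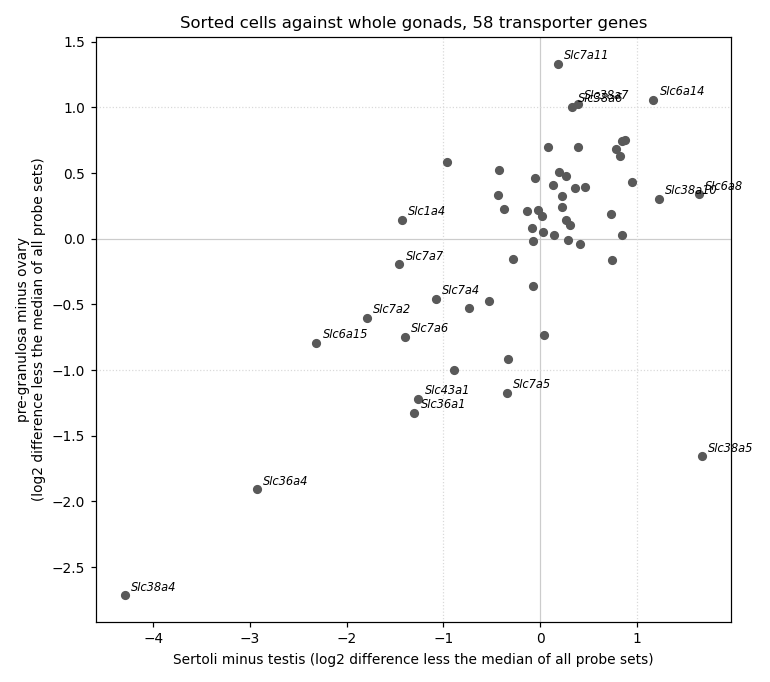
Sertoli minus testis (x axis) and pre-granulosa minus ovary (y axis) for the 58 transporter genes, in log2 units less the median over all probe sets, with dotted lines at 1 unit. Slc38a4 lies lowest on both axes, at −4.29 and −2.71, and Slc38a5 lies at 1.67 and −1.66.

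Genes that use, sense or respond to amino acids were read in 10 lists of 129 measured genes in all. Between Sertoli and pre-granulosa cells 5 of the 129 were called, Mthfd2, Stc2 and Ckb higher and Castor2 and Csad lower, and between testis and ovary 0 were called by limma. Over all genes, as above, 1.62% were called higher and 1.05% lower in sorted cells, and with 1 or 2 calls a list nothing is read from the lists' shares. In the list of ATF4 targets, 2 of 22 were higher in Sertoli cells. Mthfd2, a mitochondrial folate enzyme, read 8.94 and 8.94 in Sertoli cells against 6.93 and 6.76 in pre-granulosa cells (2.09 ± 0.14, adjusted p = 0.0015). Stc2, a secreted glycoprotein, read 8.64 and 8.85 in Sertoli cells against 6.35 and 6.65 in pre-granulosa cells (2.25 ± 0.19, adjusted p = 0.0028). Of the list's other genes Atf4 itself differed by 0.77 (adjusted p = 0.192) and Asns by −0.29 (adjusted p = 0.635). The median over the 22 was 0.60, against 0.04 over all genes. Medians of the other lists ran from −0.12 (GABA genes) to 0.43 (arginine, creatine and polyamine genes) in sorted cells. Between testis and ovary the median over the 22 was −0.07, against −0.04 over all genes. No test was made of these medians. Leaving out Sertoli replicate 2 or either testis array ended the call of Mthfd2 (adjusted p up to 0.0113). Leaving out any array but a pre-granulosa one ended that of Stc2 (up to 0.0177).

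In the list of mTORC1 and amino acid sensing genes, 1 of 27 was lower in Sertoli cells. Castor2, of the arginine sensor family, read 6.93 and 7.27 in Sertoli cells against 8.87 and 8.78 in pre-granulosa cells (−1.72 ± 0.18, adjusted p = 0.0056). Csad, which makes hypotaurine from cysteine sulfinic acid, was the 1 gene called of 11 of cystine, glutathione and taurine. It read 6.30 and 6.35 in Sertoli cells against 8.38 and 8.17 in pre-granulosa cells (−1.95 ± 0.15, adjusted p = 0.0022). Ckb, the creatine kinase of brain type, was the 1 gene called of 12 of arginine, creatine and polyamines. It read 7.01 and 7.83 in Sertoli cells against 4.79 and 4.75 in pre-granulosa cells (2.65 ± 0.27, adjusted p = 0.0051). The pre-granulosa arrays of Ckb lay beside the background level of 4.78, 1 of them under it, so the size of its gap is uncertain. Of the 8 fits that left out an array, Castor2 was called in 1, without pre-granulosa replicate 2, and Ckb in 1, without Sertoli replicate 1. Csad was called in 2, without either pre-granulosa array. The adjusted p reached 0.0269 for Castor2, 0.0249 for Ckb and 0.0148 for Csad. No gene was called among 19 aminoacyl-tRNA synthetases, 8 genes of serine and glycine, 10 of glutamine, 8 of branched-chain amino acids, 5 of GABA and 13 other carriers and partners. Some of these differed widely without a call: Bcat1, the cytosolic branched-chain aminotransferase, by −4.85 ± 0.67 (adjusted p = 0.0137), and Slc16a10, an aromatic amino acid carrier, by −3.23 ± 0.43 (adjusted p = 0.012). Bcat1 read 6.06 and 4.07 in Sertoli cells, the second under background, against 9.34 and 10.49 in pre-granulosa cells. Bcat2, the mitochondrial aminotransferase, differed by 1.26 (adjusted p = 0.0123).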

How the data were processed

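Expression was measured on Affymetrix mouse arrays, with 20 ng of total RNA per sample and 2.5 µg of cDNA hybridised. The deposited values are log2 signals, and RMA is named, with no version, per the submitters' processing notes. The ranked values differed by at most 0.175 within the 4 sorted-cell arrays and 0.146 within the 4 gonad arrays, with a median difference of −0.383 between the sets, so the authors' deposited log2 values of the sets were not tested against each other. Gene symbols come from the platform annotation, and all 58 matched the RefSeq table of GRCm38.p6.

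Limma 3.58.1 in R 4.3.3 fitted 1 mean per group over all 8 arrays (4 residual degrees of freedom), followed by eBayes. Each probe set had 1 spread shared by the 4 groups, so its SE is the same in both comparisons. The root mean square SD ran from 0.20 in testes to 0.53 in pre-granulosa cells. The p-values of sorted cells therefore draw in part on the tighter spread of the gonads. The p-values are two-sided and were adjusted by Benjamini-Hochberg across 45037 probe sets, with 64 array controls left out. The threshold of 0.01 is the one of the series text. SEs are those of the model. Fold bounds are relative to 4.78, the background level. Precision is limited by the 2 arrays per group. The transporters, the lists and the rule that named 33 genes were chosen with earlier results of these data known. The rule took called genes, the 8 highest and 8 lowest differences of each comparison among genes whose arrays do not overlap, the 10 highest means and 12 fixed genes, and, of the lists, called genes and at most 4 others each. Other genes are named as members of a count, after their values were seen. The steps of the fit were run on simulated data with known changes as a check of the code, and no result here rests on that run. Alternatives were normalization, a filter on dim probe sets, the arrays entered, array weights, an intensity trend, a replicate block, 1 probe set per gene, the threshold and leaving out each array.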

Additional observations from a re-analysis of the deposited data

How the results depend on the processing

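Slc38a5 between Sertoli and pre-granulosa cells was called under every normalization, filter, weighting and omission run, except with 4 arrays only (adjusted p = 0.0614) and with a replicate block (0.0202). The count of transporter probe sets called in that comparison was 2, and became 0 with 4 arrays only, 1 with a weight per group, 0 with a replicate block and 6 at an adjusted p of 0.05, with 1 to 4 over the omissions. Between testis and ovary it was 1, and became 0 with quantile normalization over all arrays, 0 with a mean of at least 6, 0 with 4 arrays only, 2 with a weight per group (adding Slc38a5, adjusted p = 0.00989), 0 with a replicate block and 2 at 0.05, and 0 in each omission. For the difference of the comparisons it was 0, and 1 at 0.05. The filter on a mean of at least 6 removed the Slc6a4 probe set (mean 5.67), so that gene was not tested there. In sorted cells the 2 calls under this filter were Slc38a5 and Slc38a2. With a weight per group the 1 sorted-cell call was Slc38a5. Over all probe sets the 816 calls between Sertoli and pre-granulosa cells became 0 with 4 arrays only, 195 with a weight per group, 0 with a replicate block and 2476 at 0.05, with 108 (without either testis array) to 1588 (without pre-granulosa replicate 2) over the omissions. The 97 between testis and ovary became 457 with a weight per group, 0 with a replicate block and 319 at 0.05, with 0 to 93 over the omissions (0 without any testis or ovary array, 28 without either Sertoli array). The 0 of the difference became 113 at 0.05 and 2 without Sertoli replicate 2. Deviations of same-numbered arrays correlated at 0.00944 (Sertoli and pre-granulosa) and 0.0146 (testis and ovary). No shared deviation was seen, but this does not settle whether same-numbered samples were collected as pairs. Slc38a2 between testis and ovary, 0.07, reversed to −0.0223 with quantile normalization within each set and −0.0226 over all arrays. Over 44 gene results, 658 alternative values kept direction and side of the threshold, 23 lost a call, 6 gained one and 2 reversed. The cause of these changes was not tested. Signals at or under background in a group make the differences of Slc38a5, Slc6a4, Slc7a9 and Slc6a15 bounds.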
